A study of Mus musculus with 14 samples.

Results

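The vacuolar proton pump, the Rag GTPases and their lysosomal partners were followed in dorsal skin epithelium of wild-type (WT) C57BL/6JOlaHsd mouse embryos at E14.5. The genes were chosen by name. They comprise every protein-coding gene whose symbol starts with Atp6v or Atp6ap, plus 18 named genes of the Rag, Ragulator, folliculin, TFE, mTORC1 and LAMP families. Of 26252 genes in the count table, 41 met this rule, 23 of them by the pump prefixes. The rule uses no measured value, but the set was proposed after fold changes of this same comparison had been seen. Fold changes and calls are therefore given as a description, and nothing is supported with them.

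Placodes are the local thickenings from which hair follicles form. Epithelial cells carrying the adhesion molecule MAdCAM-1 were sorted as the placode-enriched fraction, and cells without it as the interfollicular epithelium (IFE) fraction. Each fraction has 7 libraries, and the 14 libraries form 7 pairs by the codes in their titles, numbered 1 to 7 here. A library holds pooled epithelium of 3 to 4 littermates, so differences between single embryos are averaged in part and cannot be seen. No transgene or treatment is named for either fraction.

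The pump is a rotary machine. Its peripheral V1 sector splits ATP, and its membrane-embedded V0 sector moves protons into lysosomes and other compartments. When amino acids are plentiful, the pump and Ragulator let the Rag GTPases, each a dimer of RagA or RagB with RagC or RagD, bring mTORC1 to the lysosomal surface. Folliculin with Fnip1 or Fnip2 acts on RagC and RagD, and the same Rag proteins hold the transcription factors Tfeb and Tfe3 outside the nucleus. Tfeb and Tfe3 are known to switch on lysosomal genes, and Rragd, which encodes RagD, is known as one of their targets in other cells.

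Each library held between 23768071 and 49512872 counts. Levels are given as CPM, the count of a gene scaled to its library size. Madcam1, the gene of the sort, averaged 47.9 ± 12.1 CPM in placode-enriched libraries, against 0.561 ± 0.367 CPM in IFE libraries, each as mean ± SD over 7 libraries. The 8 basal keratinocyte markers, a list chosen here to mark the epithelium, summed to 5443 to 6984 CPM in placode-enriched libraries, against 6467 to 7949 CPM in IFE libraries. Of these 8, 3 rose, 4 fell and 1 did not pass, and none was at 0. Several other marker lists moved with the fractions as well. The 10 hair placode markers all rose and summed to 1347 to 1943 CPM in placode-enriched libraries, against 181 to 255 CPM in IFE libraries. The 6 Merkel cell markers summed to 13.2 to 19.6 CPM in placode-enriched libraries, against 2.22 to 5.34 CPM in IFE libraries, and all 3 that could be tested rose. The 10 melanoblast markers summed to 8.31 to 14.6 CPM in placode-enriched libraries, against 126 to 223 CPM in IFE libraries, and all 9 that could be tested fell. The 11 suprabasal markers summed to 261 to 548 CPM in placode-enriched libraries, against 3129 to 4822 CPM in IFE libraries, and 10 fell. The 7 Schwann cell and neuron markers summed to 86.1 to 114 CPM in placode-enriched libraries, against 172 to 195 CPM in IFE libraries, and 4 of 6 tested fell. Of 11 macrophage and Langerhans markers 9 were found, and they summed to 6.11 to 12.03 CPM in placode-enriched libraries, against 7.71 to 10.6 CPM in IFE libraries, with C1qa under 0.1 CPM throughout. The 9 fibroblast markers summed to 1180 to 1963 CPM in placode-enriched libraries, against 1094 to 1438 CPM in IFE libraries. Of the 8 that could be tested, 3 rose, 2 fell and 3 did not pass. The 5 endothelial markers summed to 0.945 to 3.84 CPM in placode-enriched libraries, against 0.214 to 1.43 CPM in IFE libraries, and the 1 tested rose. No melanoblast or suprabasal marker was at 0 in all libraries. The part of these cells in the results below was not tested. In pooled cells, fewer cells of a type and less RNA per cell cannot be told apart.

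Rragd rose in the placode-enriched cells, and it was the member of the set that did. The pump genes that passed all fell, by less than 2-fold except for Atp6v0a4. Of the 41 genes, 37 passed the filter on low counts. Of these, 1 was higher and 16 were lower at an adjusted p under 0.05 in the edgeR fit across all genes, and 20 did not pass. In that fit 31.1% of the 15382 genes tested passed, 15.5% higher and 15.6% lower. The median log2 fold change was -0.28 over the 37 genes and -0.02 over all genes tested. In 7 of the 37 the CPM values of the fractions did not overlap, against 14.8% of all genes tested. Below 0 lay 31 of the 37, against 52.4% of all genes tested.

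**Figure D1:**
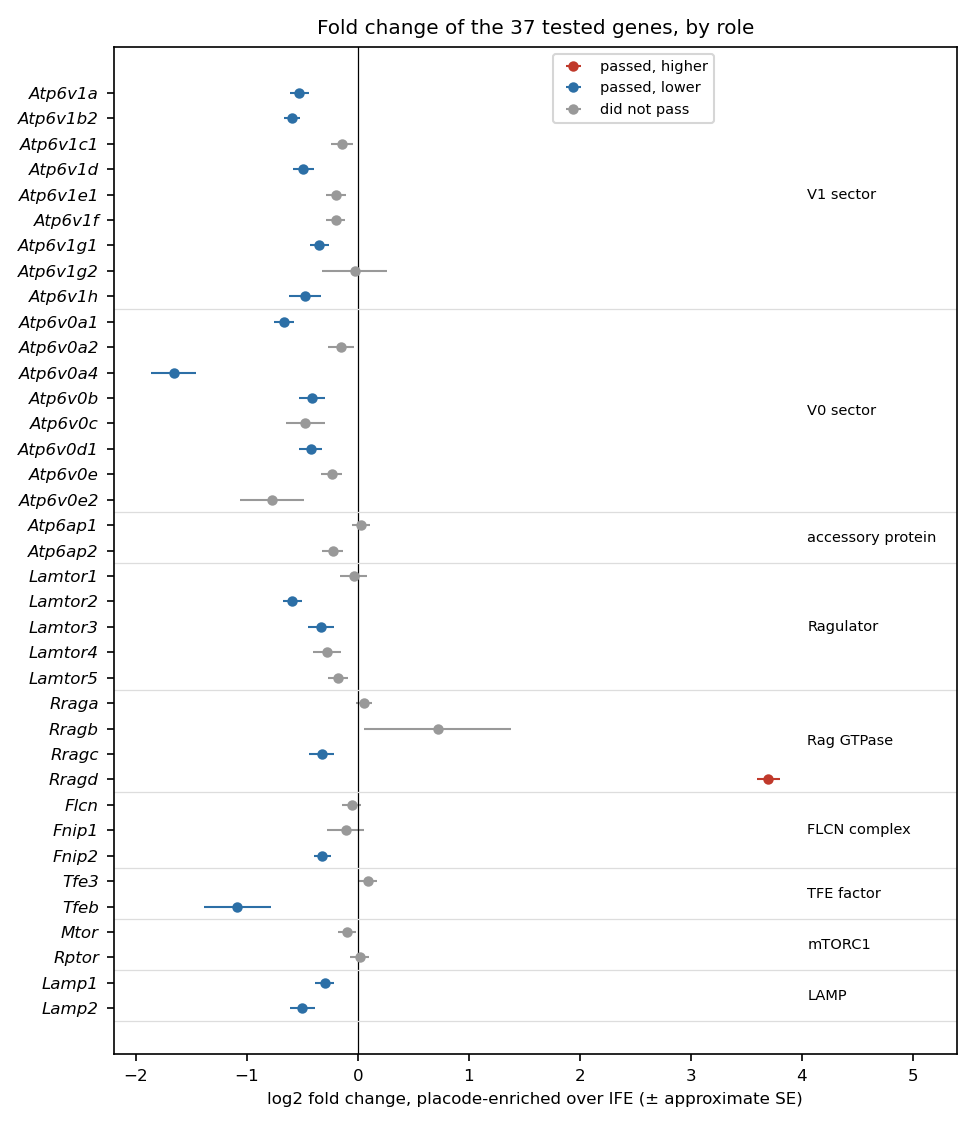
Log2 fold change of each tested gene, placode-enriched over IFE, with its approximate standard error, grouped by role (7 pairs). Rragd alone lies far to the right, at 3.70 ± 0.10, while Atp6v0a4 lies lowest at -1.66 ± 0.20 and Tfeb next at -1.08 ± 0.30.

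The Rag GTPases differed most among themselves. Rragd (ENSMUSG00000028278; GRCm38 chromosome 4, 32983037 to 33022180, plus strand) had 29.7 to 44.5 CPM in placode-enriched libraries (median 39.3 CPM), against 2.72 to 3.25 CPM in IFE libraries (median 2.91 CPM). The ranges lay far apart, and the IFE values were tightly grouped. The log2 fold change was 3.70 ± 0.10 (approximate SE), rank 82 from the top among all genes tested. Within pairs the log2 difference of Rragd ran between 3.42 and 3.92, so all 7 pairs showed it.

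Rragc (ENSMUSG00000028646; GRCm38 chromosome 4, 123917446 to 123936997, plus strand), whose product takes the same place in the Rag dimer, moved the other way. It had 33.4 to 53.5 CPM in placode-enriched libraries (median 48.1 CPM), against 41.8 to 71.2 CPM in IFE libraries (median 59.97 CPM). The fractions overlapped, and pair 3 was the 1 pair in which the placode-enriched library was higher. Rragc fell, with a log2 fold change of -0.32 ± 0.11, a call that did not hold without most single pairs, as given further down. Its exons overlap the opposite-strand gene 4930535I16Rik.

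Rraga, for RagA, had 62.2 to 77.7 CPM in placode-enriched libraries (median 69.7 CPM), against 56.7 to 74.00 CPM in IFE libraries (median 67.7 CPM). Its log2 fold change of 0.05 ± 0.07 did not pass. Rragb, for the close relative RagB, was low in both fractions and its ranges overlapped widely, with 0.696 to 3.10 CPM in placode-enriched libraries (median 1.82 CPM), against 0.0335 to 3.89 CPM in IFE libraries (median 0.992 CPM). Its log2 fold change of 0.72 ± 0.67 did not pass, and its log2 differences within pairs ran from -1.69 to 5.08.

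Scaled by exon length, levels of the 4 Rag genes can be set beside each other. Rraga stood at 42.7 ± 3.09 CPM per kb in placode-enriched libraries, against 41.2 ± 3.90 CPM per kb in IFE libraries. Rragb supplied 1.78% ± 0.748 in placode-enriched libraries, against 1.33% ± 1.17 in IFE libraries, of the summed RagA and RagB level per kb. Rragd supplied 34.6% ± 1.86 in placode-enriched libraries, against 3.19% ± 0.667 in IFE libraries, of the summed RagC and RagD level per kb. These shares of Rragd did not overlap, at 31.3% to 36.8% in placode-enriched libraries, against 2.57% to 4.60% in IFE libraries. The RagC and RagD sum was 21.7 ± 2.97 CPM per kb in placode-enriched libraries, against 18.3 ± 2.79 CPM per kb in IFE libraries. On this scale the mean level of Rragc was above that of Rragd in both fractions.

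**Figure D2:**
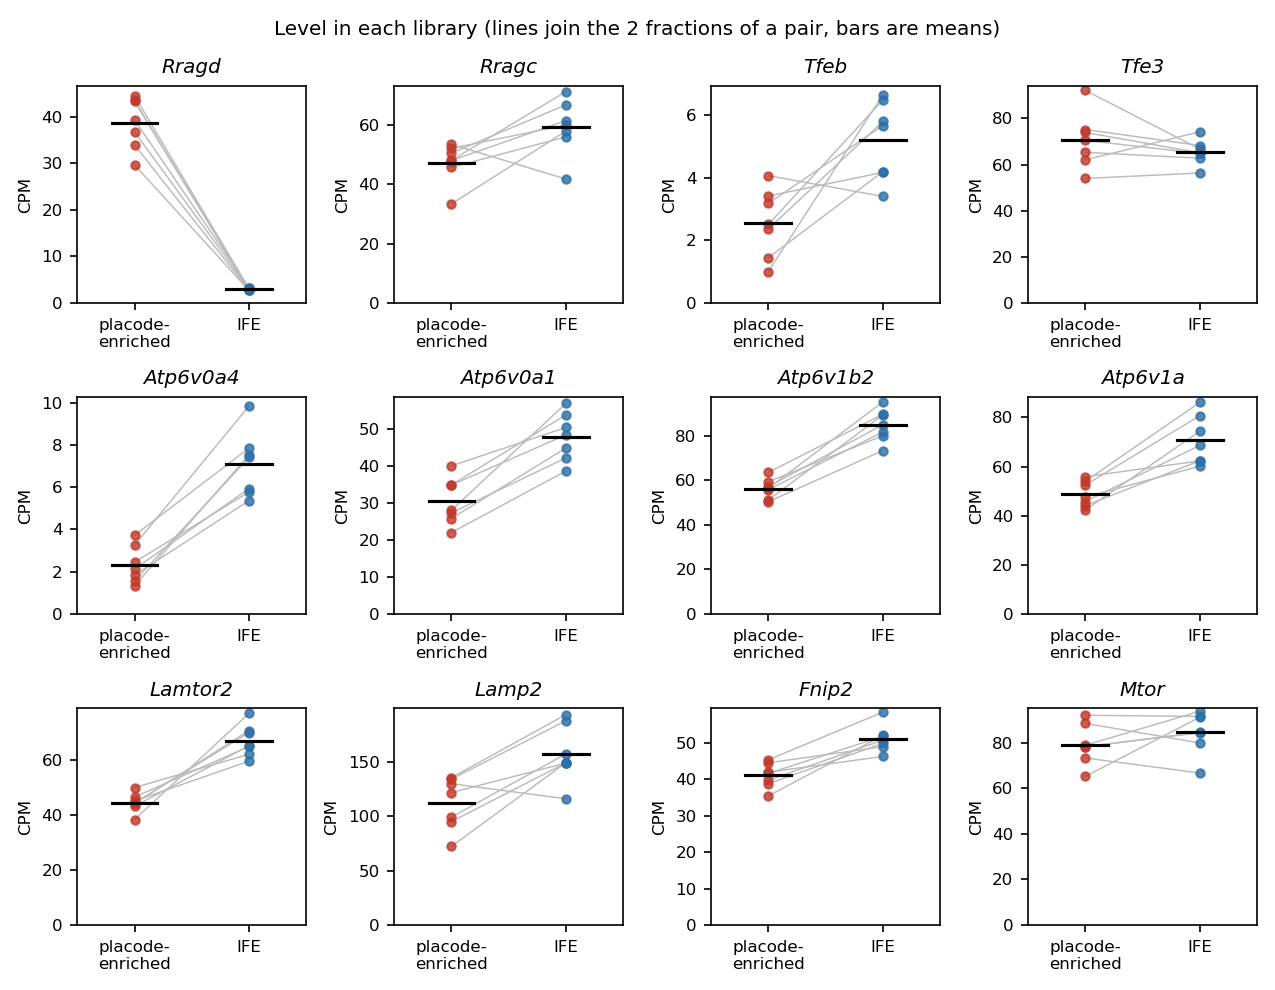
Level in CPM of the plotted genes in each library, placode-enriched left of IFE in each panel, with lines joining the libraries of a pair and bars at the means. Rragd spans 29.7 to 44.5 CPM in placode-enriched libraries, against 2.72 to 3.25 CPM in IFE libraries, whereas the points of Rragc overlap.

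The promoters of Rragd and Rragc are shown because the genes encode alternative partners, lie on the same chromosome and differ in fold change. The call of Rragc did not hold without most single pairs. The windows run from 250 bases before to 50 bases after the start annotated in RefSeq. For both genes that start differs from the one in the gene coordinates given above. Capitals mark the letters CACGTG, the core of the element that Tfeb and its relatives are known to bind, which read the same on both strands. Rragc holds 1 copy, which starts 112 bases before its RefSeq start, and the Rragd window holds none.
Rragd (GRCm38.p6, chr4:32982748-32983047, plus strand): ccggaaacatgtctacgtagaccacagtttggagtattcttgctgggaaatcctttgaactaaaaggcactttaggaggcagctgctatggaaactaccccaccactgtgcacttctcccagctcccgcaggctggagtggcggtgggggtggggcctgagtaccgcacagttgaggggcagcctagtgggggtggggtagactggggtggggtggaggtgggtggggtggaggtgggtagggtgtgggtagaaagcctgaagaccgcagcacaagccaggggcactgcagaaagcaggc
Rragc (GRCm38.p6, chr4:123917183-123917482, plus strand): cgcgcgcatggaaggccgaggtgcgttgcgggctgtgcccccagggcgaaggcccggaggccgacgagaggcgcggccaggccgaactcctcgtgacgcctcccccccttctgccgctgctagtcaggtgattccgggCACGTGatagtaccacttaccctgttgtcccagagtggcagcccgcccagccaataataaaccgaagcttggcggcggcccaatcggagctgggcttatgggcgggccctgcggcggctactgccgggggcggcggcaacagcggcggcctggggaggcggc
The Rragd window has 59.7% G and C and 6 CG dinucleotides. The Rragc window has 70.7% and 32, and the medians over all promoter windows are 52.7% and 7. Absence of the letters says only that they are not in this window.

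Of the TFE factors, Tfeb was the low one and fell. Tfeb (ENSMUSG00000023990; GRCm38 chromosome 17, 47737030 to 47792419, plus strand) had 1.004 to 4.06 CPM in placode-enriched libraries (median 2.51 CPM), against 3.40 to 6.65 CPM in IFE libraries (median 5.67 CPM). The ranges overlapped at their edges, and pair 5 went against the other 6. The log2 fold change of Tfeb was -1.08 ± 0.30.

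Tfe3, on chromosome X, had 53.98 to 92.1 CPM in placode-enriched libraries (median 70.4 CPM), against 56.3 to 74.2 CPM in IFE libraries (median 65.1 CPM). Its log2 fold change of 0.09 ± 0.08 did not pass, and the IFE range lay inside the placode-enriched one. Mitf, the relative that drives pigment cell fate and is outside the chosen set, averaged 1.35 ± 0.584 CPM in placode-enriched libraries, against 16.6 ± 3.01 CPM in IFE libraries. It fell, with a log2 fold change of -3.72 ± 0.26, and it is an established gene of the melanoblasts whose marker sums are given above.

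Per kb of exon, Tfe3 made up 91.9% ± 1.36 in placode-enriched libraries, against 66.3% ± 4.53 in IFE libraries, of the summed Tfeb, Tfe3 and Mitf level. The share of Tfeb was 5.39% ± 1.85 in placode-enriched libraries, against 8.54% ± 1.75 in IFE libraries. With the longest transcript as the length, it was 8.61% in placode-enriched libraries, against 13.8% in IFE libraries. The share of Mitf was 2.66% ± 1.20 in placode-enriched libraries, against 25.1% ± 3.98 in IFE libraries.

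**Figure D3:**
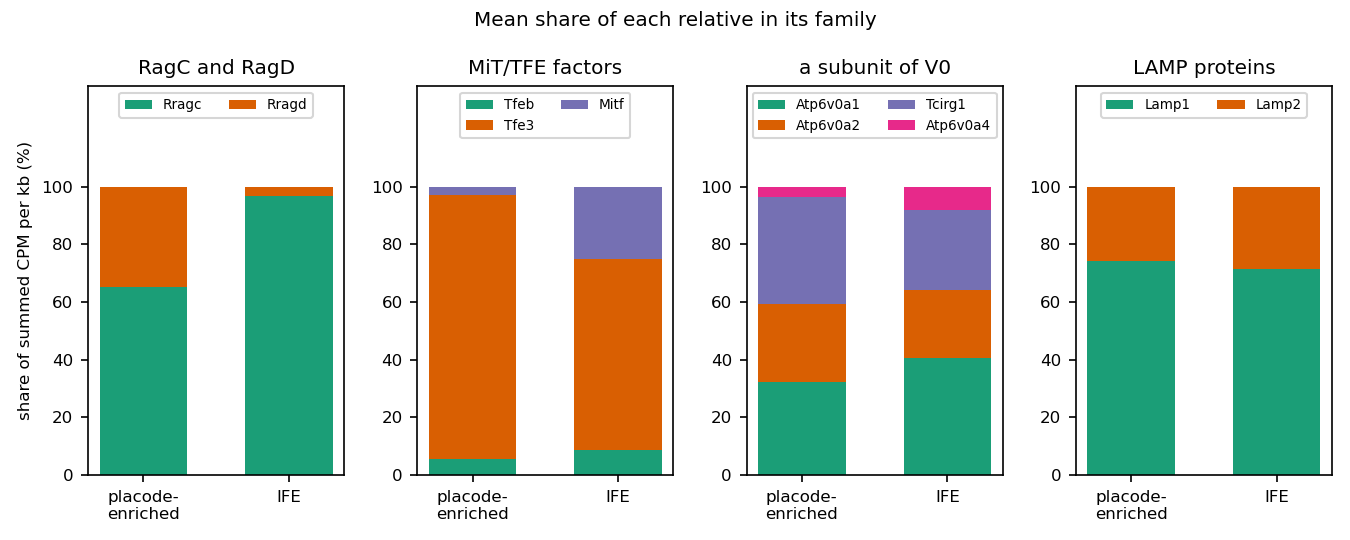
Mean share (n = 7 libraries) of each relative in the summed CPM per kb of exon of its family, placode-enriched left of IFE. Rragd makes up 34.6% of its family in placode-enriched libraries, against 3.19% in IFE libraries, and Tfe3 makes up 91.9%, against 66.3%. The share of Mitf is 2.66% in placode-enriched libraries, against 25.1% in IFE libraries, and the fold change of Tfe3 itself did not pass.

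In the folliculin complex, 1 of 3 genes fell. Flcn, the gene for folliculin itself, had 15.2 to 20.3 CPM in placode-enriched libraries (median 16.6 CPM), against 16.7 to 19.8 CPM in IFE libraries (median 17.8 CPM). Its log2 fold change of -0.05 ± 0.09 did not pass. The partner gene Fnip2 had 35.5 to 45.4 CPM in placode-enriched libraries (median 41.7 CPM), against 46.3 to 58.5 CPM in IFE libraries (median 50.8 CPM). Its fractions did not overlap, and it fell with a log2 fold change of -0.32 ± 0.07. The other partner gene, Fnip1, varied widely within both fractions, with 26.3 to 53.6 CPM in placode-enriched libraries (median 37.9 CPM), against 25.3 to 52.98 CPM in IFE libraries (median 40.8 CPM). Its log2 fold change of -0.11 ± 0.17 did not pass. Fnip1 supplied 52.3% ± 6.96 in placode-enriched libraries, against 48.6% ± 5.71 in IFE libraries, of the Fnip sum per kb, which differed by less than the spread.

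Ragulator, the scaffold that tethers the Rag proteins to the lysosome, has 5 subunit genes, of which 2 fell. Lamtor2 had 38.4 to 50.1 CPM in placode-enriched libraries (median 44.5 CPM), against 59.7 to 77.1 CPM in IFE libraries (median 65.3 CPM). The fractions did not overlap, and Lamtor2 fell with a log2 fold change of -0.59 ± 0.09. Lamtor3, whose product pairs with that of Lamtor2, also fell (-0.33 ± 0.11), with overlapping fractions. Lamtor1, the subunit anchored in the lysosomal membrane, had 62.99 to 103 CPM in placode-enriched libraries (median 71.3 CPM), against 68.7 to 96.5 CPM in IFE libraries (median 75.6 CPM). Its log2 fold change of -0.04 ± 0.12 did not pass, and its exons overlap the opposite-strand gene Lrrc51. Lamtor4 (-0.28 ± 0.13) and Lamtor5 (-0.18 ± 0.09) did not pass.

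The 2 mTORC1 genes did not pass. Mtor, the kinase gene, had 65.2 to 92.1 CPM in placode-enriched libraries (median 78.3 CPM), against 66.7 to 93.8 CPM in IFE libraries (median 84.6 CPM), a log2 fold change of -0.09 ± 0.08. Rptor, for the subunit that docks on the Rag proteins, had 90.3 to 145 CPM in placode-enriched libraries (median 103 CPM), against 91.3 to 130 CPM in IFE libraries (median 109 CPM), a log2 fold change of 0.02 ± 0.09. The ranges of each overlapped widely, and exons of Rptor overlap its antisense gene Rptoros.

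The lysosomal membrane glycoprotein genes Lamp1 and Lamp2 both fell. Lamp1 had 67.2 to 106 CPM in placode-enriched libraries (median 90.7 CPM), against 91.7 to 122 CPM in IFE libraries (median 116 CPM), a log2 fold change of -0.30 ± 0.09. The X-linked Lamp2 had 72.4 to 136 CPM in placode-enriched libraries (median 122 CPM), against 116 to 194 CPM in IFE libraries (median 150 CPM), a log2 fold change of -0.50 ± 0.11. The ranges of each gene overlapped, and in pair 3 both were higher in the placode-enriched library. Exons of Lamp1 overlap the opposite-strand gene Grtp1. Lamp1 supplied 74.2% ± 2.25 in placode-enriched libraries, against 71.5% ± 2.41 in IFE libraries, of their sum per kb, and Lamp2 the rest. With the longest transcript as the length, the share of Lamp2 was 43.3% in placode-enriched libraries, against 46.8% in IFE libraries.

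Among the pump genes 9 of 19 tested fell, where 15.6% of all genes tested did, and the other 10 did not pass. Summed over the 23 pump genes, the level was 563 to 627 CPM in placode-enriched libraries (median 568 CPM), against 702 to 800.0 CPM in IFE libraries (median 761 CPM). The sums did not overlap and were lower in the placode-enriched library of all 7 pairs. The V1 genes summed to 343 ± 22.1 CPM in placode-enriched libraries, against 454 ± 29.1 CPM in IFE libraries. The V0 genes summed to 168 ± 6.95 CPM in placode-enriched libraries, against 229 ± 15.5 CPM in IFE libraries.

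In the V1 sector, both tested genes of the ATP-splitting ring fell. Atp6v1b2 (ENSMUSG00000006273; GRCm38 chromosome 8, 69088646 to 69113711, plus strand), for the widely used B subunit, had 50.4 to 63.5 CPM in placode-enriched libraries (median 56.5 CPM), against 73.3 to 95.1 CPM in IFE libraries (median 84.96 CPM). The fractions did not overlap, and the log2 fold change was -0.59 ± 0.07. Atp6v1a, for the catalytic A subunit, had 42.3 to 55.9 CPM in placode-enriched libraries (median 47.5 CPM), against 60.2 to 86.1 CPM in IFE libraries (median 68.6 CPM). It fell without overlap (-0.53 ± 0.08), as did Atp6v1d (-0.49 ± 0.09), for the central rotor. Atp6v1g1, for the main G subunit of the outer stalk, had 40.00 to 53.1 CPM in placode-enriched libraries (median 47.7 CPM), against 52.5 to 63.4 CPM in IFE libraries (median 60.3 CPM). It was lower in 7 of 7 pairs, with a log2 fold change of -0.34 ± 0.09 and a narrow overlap.

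Atp6v1h, for a regulatory subunit, fell too (-0.48 ± 0.14), and its exons overlap the opposite-strand gene Rgs20. Atp6v1f, also of the rotor, had 31.5 to 52.1 CPM in placode-enriched libraries (median 43.9 CPM), against 41.00 to 59.1 CPM in IFE libraries (median 47.1 CPM). It did not pass (-0.20 ± 0.08). The stalk genes Atp6v1c1 (-0.14 ± 0.10) and Atp6v1e1 (-0.19 ± 0.09) did not pass either, and Atp6v1e1 shares exon sequence with Slc25a18 on the other strand. Atp6v1g2, an alternative G subunit gene, had 1.33 to 4.10 CPM in placode-enriched libraries (median 2.166 CPM), against 1.57 to 3.42 CPM in IFE libraries (median 2.28 CPM). Its log2 fold change of -0.03 ± 0.29 did not pass, and its exons overlap Nfkbil1.

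In the V0 sector the lowest fold change lay among the a subunits, which direct the pump to different membranes. Atp6v0a4 (ENSMUSG00000038600; GRCm38 chromosome 6, 38048483 to 38124586, minus strand), known from acid-secreting cells of the kidney, had 1.33 to 3.72 CPM in placode-enriched libraries (median 2.13 CPM), against 5.37 to 9.84 CPM in IFE libraries (median 7.41 CPM). The fractions did not overlap, and it fell with a log2 fold change of -1.66 ± 0.20. Its exons overlap Tmem213 on the opposite strand and D630045J12Rik on the same strand, so some reads may belong to those genes. Of 5 markers of acid-secreting epithelium 3 were found, and they summed to 1.33 to 3.67 CPM in placode-enriched libraries, against 5.64 to 9.995 CPM in IFE libraries. Of the 2 that could be tested, the anion exchanger gene Slc4a9 carried most of that sum and fell (-2.38 ± 0.24). The carbonic anhydrase gene Car2 averaged 0.402 CPM in placode-enriched libraries, against 0.400 CPM in IFE libraries, and did not pass (0.08 ± 0.66). Slc4a1 averaged under 0.1 CPM. The part of such cells was not tested.

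Atp6v0a1, for the a subunit known best from neurons, had 22.1 to 40.1 CPM in placode-enriched libraries (median 28.1 CPM), against 38.7 to 57.03 CPM in IFE libraries (median 48.5 CPM). It fell and was lower in 7 of 7 pairs (-0.67 ± 0.09), with 1 placode-enriched library inside the IFE range. Atp6v0a2, known from Golgi and endosomes, had 18.9 to 32.4 CPM in placode-enriched libraries (median 25.6 CPM), against 20.1 to 35.8 CPM in IFE libraries (median 28.7 CPM). It did not pass (-0.15 ± 0.11), and its exons overlap 4930404A12Rik on the opposite strand. The remaining a subunit gene, Tcirg1, known from osteoclasts, lies outside the set by its symbol and was added after its values were seen. It averaged 25.03 ± 6.15 CPM in placode-enriched libraries, against 23.1 ± 2.13 CPM in IFE libraries, and did not pass (0.09 ± 0.12).

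Per kb of exon, Tcirg1 made up 37.4% ± 3.83 in placode-enriched libraries, against 27.9% ± 2.42 in IFE libraries, of the a subunit sum. The share of Atp6v0a1 was 32.3% ± 4.07 in placode-enriched libraries, against 40.5% ± 2.97 in IFE libraries, and that of Atp6v0a2 was 26.9% ± 3.06 in placode-enriched libraries, against 23.6% ± 2.57 in IFE libraries. Atp6v0a4 was a minor form, with 3.40% ± 1.59 in placode-enriched libraries, against 8.01% ± 2.24 in IFE libraries. In placode-enriched libraries the mean shares of Tcirg1 and Atp6v0a1 lay closer than their summed SDs, whereas in IFE libraries that of Atp6v0a1 was the higher by more than that.

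Of the other V0 genes, Atp6v0b (-0.41 ± 0.12), of the proton-carrying ring, and Atp6v0d1 (-0.42 ± 0.10), which joins the ring to the rotor, fell. Exons of Atp6v0b overlap Gm12841 on the opposite strand. Atp6v0c, the main ring gene, averaged 24.7 ± 6.95 CPM in placode-enriched libraries, against 34.5 ± 9.88 CPM in IFE libraries, and did not pass (-0.47 ± 0.18). The table also holds a pseudogene copy, Atp6v0c-ps2, with 0.0816 ± 0.0996 CPM in placode-enriched libraries, against 0.206 ± 0.147 CPM in IFE libraries. Few reads were thus counted at the copy, and how reads matching both were handled is not known. Atp6v0e (-0.24 ± 0.10) and the lower-expressed Atp6v0e2 (-0.77 ± 0.29) did not pass.

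Of the tested accessory genes, both on chromosome X, Atp6ap1 had 41.4 to 55.9 CPM in placode-enriched libraries (median 49.9 CPM), against 44.1 to 53.2 CPM in IFE libraries (median 50.5 CPM). Atp6ap2 had 16.4 to 30.7 CPM in placode-enriched libraries (median 23.7 CPM), against 22.05 to 34.6 CPM in IFE libraries (median 26.1 CPM). Neither passed, at log2 fold changes of 0.03 ± 0.08 for Atp6ap1 and -0.23 ± 0.09 for Atp6ap2.

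**Figure D4:**
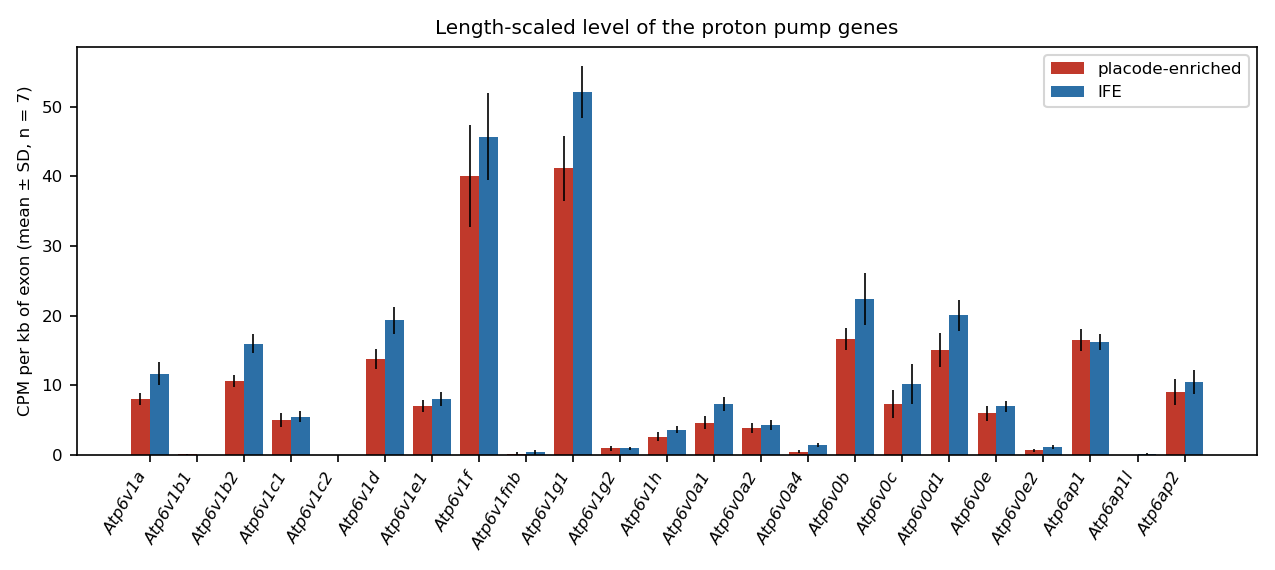
Level of the 23 pump genes in CPM per kb of exon (bars are means, error bars SD, n = 7 each), placode-enriched left of IFE for each gene. Atp6v1g1 and Atp6v1f stand highest, at 41.2 and 40.1 in placode-enriched libraries, against 52.1 and 45.7 in IFE libraries.

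On the length-scaled level, Atp6v1g1 stood highest among pump genes, at 41.2 ± 4.67 CPM per kb in placode-enriched libraries, against 52.1 ± 3.70 CPM per kb in IFE libraries. Atp6v1f stood at 40.1 ± 7.30 CPM per kb in placode-enriched libraries, against 45.7 ± 6.23 CPM per kb in IFE libraries. The means of these 2 genes differed by less than 1 SD of either in placode-enriched libraries, and by more than that in IFE libraries. Beyond the pump, Rraga, given above, and Lamtor2, at 36.6 ± 2.89 CPM per kb in placode-enriched libraries, against 55.2 ± 4.86 CPM per kb in IFE libraries, also stood among the 4 highest of the set. The median over all genes tested was 4.60 CPM per kb in placode-enriched libraries, against 4.70 CPM per kb in IFE libraries. Exon length counts every annotated exon, so the scale understates genes with many unused exons.

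A further 4 genes with a pump prefix were too low to test. Atp6v1b1, the B subunit gene of kidney and inner ear, had 75 counts in all, in 5 of 14 libraries. Atp6v1c2 had 4 counts, all in 1 IFE library. Atp6ap1l had 44 counts, and Atp6v1fnb had 89, the last a neighbour of Atp6v1f that meets the prefix but is not known as a pump subunit. Atp6v0d2, Atp6v1e2 and Atp6v1g3 were not analysed here.

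Promoter windows were matched for 34 of the 41 genes, 40 windows in all. The letters CACGTG stood in 10 of these windows (25.0%), against 2349 of 32851 windows of all genes (7.15%). The longer form TCACGTGA, which contains the shorter one and also reads the same on both strands, stood in 3 windows (7.5%), against 320 of all (0.974%). Those 3 belong to pump genes and are shown over 60 bases with the longer match in capitals. The windows are placed by RefSeq starts. In the GENCODE annotation, Atp6v0e starts at base 26663231 and Atp6v1a, on the minus strand, at base 44139705. The stretches shown for Atp6v0e and Atp6v1a therefore lie inside these genes, at other starts.
Atp6v1a (GRCm38.p6, chr16:44139358-44139417, minus strand): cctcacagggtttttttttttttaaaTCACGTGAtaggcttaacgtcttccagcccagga
Atp6v0d1 (GRCm38.p6, chr8:105566035-105566094, minus strand): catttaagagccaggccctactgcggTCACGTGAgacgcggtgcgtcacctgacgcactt
Atp6v0e (GRCm38.p6, chr17:26676372-26676431, plus strand): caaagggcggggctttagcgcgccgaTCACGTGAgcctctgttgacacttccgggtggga
Atp6v1a and Atp6v0d1 fell, and Atp6v0e did not pass. Other genes with the shorter form were Atp6v0b, Fnip1, Lamp1, Lamtor1, Lamtor4, Rragb and Rragc, of which Atp6v0b, Lamp1 and Rragc fell. A match describes the letters and is not a bound site.

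Each pair held more lower than higher genes of the set. Between 26 and 31 of the 37 tested genes were lower in the placode-enriched library of a pair. The median difference of the set within a pair lay between -0.38 (pair 4) and -0.16 (pair 3) on the log2 scale, while that of all tested genes lay between -0.03 and 0.02. In several genes a single pair was higher in its placode-enriched library and the other 6 were lower. That pair was pair 3 for Fnip1, Lamtor3, Rragc, Lamp1, Lamp2, Atp6v0e and Atp6v1c1. It was pair 5 for Tfeb and Atp6v0b, pair 1 for Atp6v1h and Atp6ap2, and pair 7 for Atp6v0e2 and Atp6v1f.

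**Figure D5:**
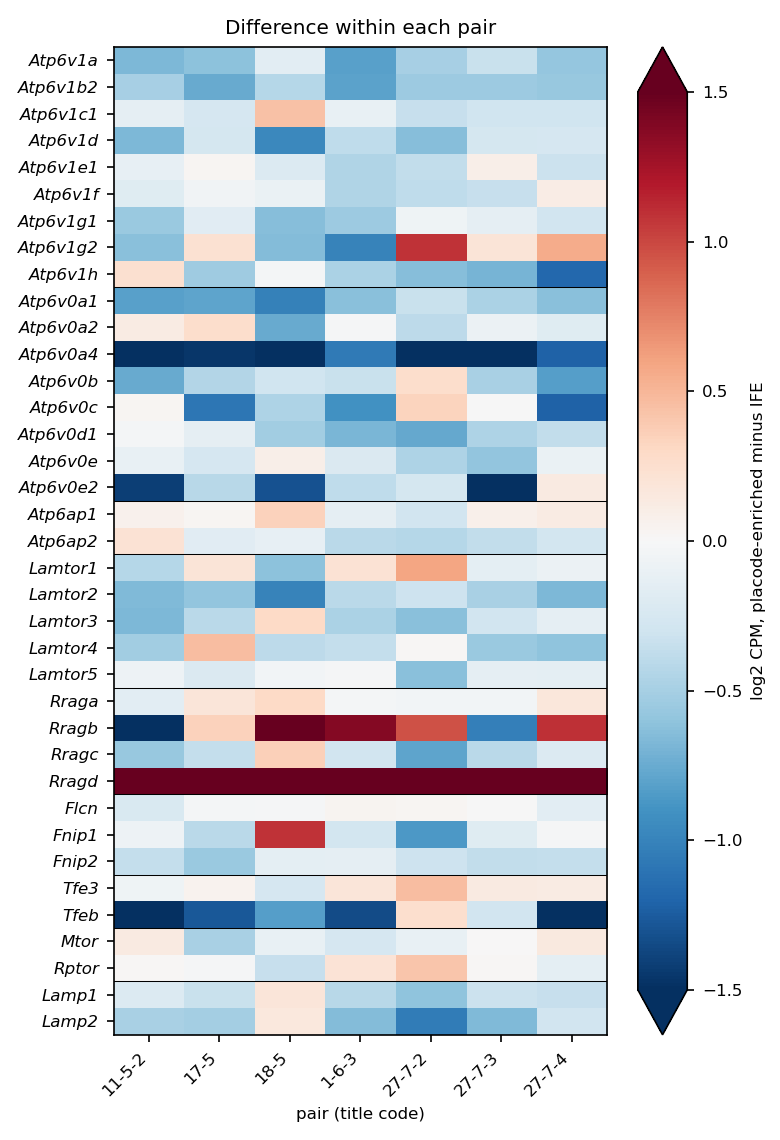
Difference in log2 CPM, placode-enriched minus IFE, for each tested gene (rows) in each of the 7 pairs (columns), red where the placode-enriched library was higher and blue where it was lower. Rragd is positive, and Atp6v0a4, Atp6v1a, Atp6v1b2 and Lamtor2 are negative, in all 7 pairs.

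Calls near the threshold depended on single pairs. Of the 17 genes that passed, 12 still passed whichever pair was left out. Lamp1 lost its call without pair 2 (-0.28), pair 4 (-0.27), pair 6 (-0.29) or pair 7 (-0.27). Atp6v0b lost it without pair 1 (-0.35) or pair 7 (-0.33), and Atp6v1h without pair 2 (-0.46), pair 4 (-0.47), pair 6 (-0.44) or pair 7 (-0.34). Rragc and Lamtor3 lost it without any single pair except pair 3, at log2 fold changes of -0.33 to -0.25 for Rragc and -0.35 to -0.27 for Lamtor3. Over all 15 alternatives, the adjusted p from edgeR or DESeq2 lay between 0.00133 and 0.36 for Rragc and between 0.00253 and 0.212 for Lamtor3. It lay between 0.000651 and 0.289 for Lamp1, between 0.000513 and 0.331 for Atp6v0b, and between 0.00483 and 0.402 for Atp6v1h.

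A further 7 genes passed under some alternative only. Without pair 3 these were Fnip1 (-0.30), Atp6v0e (-0.29) and Atp6v1c1 (-0.24). Lamtor4 passed without pair 2 (-0.39), and Atp6ap2 without pair 1 (-0.29). Atp6v0c passed without pair 1 (-0.56) or pair 5 (-0.61), and Atp6v0e2 without pair 7 (-0.91).

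Related genes outside the set were described from lists of the pathway. Their counts stand beside 15.5% higher and 15.6% lower over all genes tested, 31.1% in all. Of 12 tested GATOR and KICSTOR genes, which relay amino acid supply to the Rag proteins, 2 rose and 10 did not pass (median log2 fold change 0.09). Wdr59, a GATOR2 subunit gene, was among those that rose (0.32 ± 0.08). Of 7 tested amino acid sensor genes, Sesn3 (0.41 ± 0.10) and Castor2 (0.46 ± 0.15) rose, Sesn2 fell (-0.35 ± 0.11), and 4 did not pass (median log2 fold change 0.04). Rheb is the switch that turns mTORC1 on. Of 5 genes of TSC and Rheb, the Rheb relative Rhebl1 rose (0.996 ± 0.17), and 4 did not pass (median log2 fold change 0.0016).

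Of 9 other genes of the mTOR complexes, 3 fell and 6 did not pass (median log2 fold change -0.28). Deptor, an inhibitor of mTOR, fell (-0.94 ± 0.19), as did Prr5 (-0.41 ± 0.12) and Prr5l (-0.34 ± 0.11) of mTORC2. Of 12 mTORC1 substrates and effectors, 2 rose, 2 fell and 8 did not pass (median log2 fold change -0.16). Lpin1 (0.59 ± 0.11), a lipid enzyme gene, and Ulk1 (0.32 ± 0.09), a kinase gene of autophagy, rose. Larp1 (-0.38 ± 0.08), whose product binds messages of ribosomal proteins, and the translation repressor gene Eif4ebp1 (-0.51 ± 0.16) fell.

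Of 10 tested genes for assembly and regulation of the pump, 2 rose, 1 fell and 7 did not pass (median log2 fold change 0.03). Dmxl2, which helps join the pump sectors, had 16.1 to 28.9 CPM in placode-enriched libraries (median 25.6 CPM), against 11.2 to 15.6 CPM in IFE libraries (median 12.9 CPM). It rose without overlap (0.88 ± 0.12), and Ncoa7 rose too (0.45 ± 0.13). Ccdc115, needed for pump assembly, had 22.5 to 32.6 CPM in placode-enriched libraries (median 24.6 CPM), against 38.8 to 49.1 CPM in IFE libraries (median 41.2 CPM), and fell without overlap (-0.67 ± 0.10). Of 9 lysosomal ion channel and exchanger genes, Clcn6 rose (0.43 ± 0.09), Clcn3 (-0.28 ± 0.08) and Clcn5 (-0.52 ± 0.10) fell, and 6 did not pass (median log2 fold change -0.12).

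Of 27 lysosomal hydrolases and their cofactors, 12 fell, 1 rose and 14 did not pass, where 31.1% of all genes tested passed (median log2 fold change -0.22). The aspartic protease gene Ctsd averaged 49.2 ± 2.70 CPM in placode-enriched libraries, against 88.5 ± 8.09 CPM in IFE libraries, and fell (-0.84 ± 0.08). The saposin precursor gene Psap fell as well (-0.64 ± 0.06). The protease gene Ctsf, which averaged 1.85 ± 0.577 CPM in placode-enriched libraries, against 0.758 ± 0.242 CPM in IFE libraries, was the one that rose (1.29 ± 0.33). Of 8 tested genes of the lysosomal membrane and lipid export, Npc2 rose (0.29 ± 0.07), Cd63 (-0.50 ± 0.09) and Npc1 (-0.25 ± 0.09) fell, and 5 did not pass (median log2 fold change -0.14). Of 17 autophagy genes, Gabarapl1 rose (0.39 ± 0.09), Sqstm1 (-0.23 ± 0.08) and Atg7 (-0.41 ± 0.14) fell, and 14 did not pass (median log2 fold change 0.05).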

How the data were processed

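Total RNA was sequenced from 14 libraries of sorted E14.5 dorsal skin epithelium, 7 per fraction. The values deposited by the authors are unnormalized read counts for Ensembl gene identifiers. The submitters' processing notes name HTSeq, STAR (version given as 1.5), MultiQC, FastQC, Trimmomatic and bcl2fastq (2.17.1.14), with GRCm38 and mm10. For the annotation release, the strand setting and duplicates, the sources used here give nothing, so whether reads of genes on opposite strands were separated is not known. Exons of 10 tested genes of the set overlap such a gene.

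Symbols, coordinates and exon lengths came from GENCODE M21 (GRCm38), which matched 25949 of 26252 identifiers. The other 303 held 0.436% of counts. Counts were fitted with edgeR 4.0.16 (R 4.3.3) after filterByExpr (15382 genes kept, 10870 removed) and TMM scaling, using robust quasi-likelihood F tests, pairs as blocks, and Benjamini-Hochberg adjustment at 0.05 over all genes. CPM use TMM-scaled library sizes. Fold changes use a prior count of 0.125. The approximate SE is the size of the log2 fold change fitted without that prior, over the root of F. The pairing comes from the design text and shared title codes. Within pairs, deviations from the mean of each fraction had a mean correlation of 0.0548 (-0.132 to 0.195). The labels do not say whether pairs share a litter or day, and p-values reflect only the variation among these pooled samples.

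The set and the lists were chosen with earlier results of these data known. Ranges over libraries are given for the genes with the highest and lowest fold change of each role, all Rag and TFE genes and the 4 highest per kb. From each other list, up to 3 passing genes per direction are named, plus Mitf, and some genes that this rule would name are not reported here. Tcirg1, Slc4a9 and Car2 were named after their values were seen, as were ranges for Atp6v1a and Fnip1. Alternatives were no block, DESeq2 (1.42.0) size factors, its Wald test, upper-quartile scaling, no filter, at least 1 CPM in 7 libraries, each pair left out, the 27-7 pairs or the others alone, and longest transcript lengths. The fit was run on simulated counts with the same scatter for every gene and no pair effects. That run says nothing about calls near the threshold. Python 3.11.15 with pandas 2.3.3 and matplotlib 3.10.9 made tables and figures.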

Additional observations from a re-analysis of the deposited data

Results flagged for a closer look

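Among 74 groups of 7 libraries (37 genes in both fractions), 2 held a library far from the others by Dixon's ratio, where chance gives about 1 group in 20. Rragc stood at 33.4 CPM in placode-enriched library 5, against a median of 48.1 CPM in that fraction. Rragb stood at 3.89 CPM in IFE library 1, against a median of 0.992 CPM in that fraction.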

How the results depend on the processing

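Under all 15 alternatives 1 gene of the set was called higher, and with a pair left out 12 to 19 were lower. With the 3 pairs coded 27-7 alone 9 were lower, and with the other pairs alone 10. Over all genes, 1226 were higher and 1105 lower in the 27-7 pairs, and 1547 higher and 1540 lower in the other pairs. With a pair left out, 2037 to 2513 were higher and 1916 to 2716 lower. Over all genes with all pairs, 2384 were higher and 2402 lower, and in the set 16 were lower. Of the related genes outside the set, 13 were higher and 26 lower with all pairs. Hydrolase or cofactor genes made up 12 of these 26, and over all genes tested 15.5% were higher and 15.6% lower. The numbers tested stand with each list above. Of the related genes, 4 were higher and 12 lower in the 27-7 pairs, and 3 higher and 16 lower in the other pairs. With a pair left out, 11 to 14 were higher and 19 to 28 lower. These fits use fewer libraries.

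Without the replicate block, 2357 genes were higher and 2332 lower, and in the set 1 was higher and 16 lower. Lamtor3 lost its call (-0.34) and Atp6v0e2 passed (-0.75). Rragd, Lamtor2, Atp6v0a1, Atp6v0a4, Atp6v1a and Atp6v1b2 passed under all 15 alternatives, and Rragd lay between 3.66 and 3.74.

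Where a log2 fold change turned sign, it passed neither in that fit nor in the one with all pairs. With a pair left out, values ran over -0.30 to 0.0156 for Fnip1, -0.14 to 0.0597 for Lamtor1 (also 0.0307), -0.22 to 0.15 for Atp6v1g2 (also 0.0784 and 0.0865), -0.0212 to 0.0816 for Atp6ap1 and -0.0473 to 0.0821 for Rptor (also -0.001096). In the 27-7 pairs Lamtor1 stood at 0.12, Atp6v1g2 at 0.63, Atp6ap1 at -0.0261 and Mtor at 0.01997. In the other pairs Fnip1 stood at 0.0747, Tfe3 at -0.0204 and Rptor at -0.0364. Without the replicate block Atp6v1g2 stood at 0.0188. The cause was not tested.

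With the longest transcript in place of all exons, 14 of 46 shares moved by more than their spread, and without a pair 0 did. The share of Lamp1 was then 56.7% in placode-enriched libraries, against 53.2% in IFE libraries, and that of Rragd was 32.3% in placode-enriched libraries.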
